A study of Mus musculus with 14 samples.

Results

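Cytosolic ribosomal protein genes encode the proteins that, with ribosomal RNA, form the large (60S, Rpl and Rplp genes) and the small (40S, Rps genes) subunit of the ribosome. They were taken from the RNA-seq counts of mouse oocytes by symbol, as every gene whose name begins with Rpl, Rps or Rplp and a number, without the Rps6k kinases and the -ps pseudogenes. This gave 87 genes of 20638, with 101 of 26495 transcripts, and the transcript with the highest mean count stood for each gene. By symbol, 54 genes were assigned to the large subunit and 32, with the retrogene Rps23rg1 among them, to the small subunit. Whether the product of Rps23rg1 is part of the ribosome was not tested. The remaining gene, Rps19bp1, encodes a binding partner of Rps19. It was taken only because of its symbol, and it stayed in the counts over all members but not in those by subunit. Of the 87 genes, 85 passed the filter on low counts. Rpl3l, a muscle-type copy of Rpl3, was at 0 in 13 libraries and at 0.073 CPM (counts scaled to a common library total) in the other, and Rpl32l ranged from 0.07 to 0.25 CPM, so that neither was tested. Rps4x and Rps4l were not analysed here.

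The oocytes were full-grown and still held an intact germinal vesicle, their large nucleus, and thus had not resumed meiosis. They came from females 4 to 6 weeks old that had received 5 IU of equine chorionic gonadotropin 48 h before. Ago2 fl/fl oocytes (n = 3 libraries) carry floxed Ago2 alleles and no Cre, are labelled wild-type, and are the controls of both Ago2 mutants. Ago2 ADH oocytes (n = 3) are Ago2 fl/ADH; Cre/+, so that after deletion the only allele left encodes an AGO2 that cannot cleave RNA, and Ago2 null oocytes (n = 2) have lost Ago2. Dicer WT oocytes (n = 3) are the controls of Dicer KO oocytes (n = 3), which are labelled Dicer null. The Ago2 deletions are driven by Cre under the Zp3 promoter, which acts in growing oocytes alone, so that all other cells of these females keep the undeleted alleles. Each library held 20 oocytes pooled from 3 or 4 females of mostly C57BL6, mixed background. In such pools, fewer cells of a type and less RNA per cell cannot be told apart, and all levels are shares of the RNA sequenced. The comparisons ask how ribosomal protein mRNAs differ from control oocytes when AGO2 cannot cleave, when AGO2 is missing and when DICER, which makes small RNAs, is missing.

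Oocytes make and store ribosomes while they grow, and transcription falls silent at full size, so that the mRNA levels of a full-grown oocyte are those of a store. Many ribosomal protein mRNAs begin with a C followed by a run of C and T, the 5′ terminal oligopyrimidine (TOP) motif, through which their translation is set by mTOR and the RNA-binding protein LARP1. Ribosomal protein genes have also left many processed pseudogenes in the genome, whose sequence is close to that of the mRNA.

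Counts on transcripts ranged from 29380403 to 58285057 per library, so that 3 counts correspond to 0.051 to 0.10 CPM. All 12 oocyte markers were detected in every library. The 12 markers of granulosa and cumulus cells summed to 72.3 to 78.4 CPM in Ago2 fl/fl, 58.8 to 66.3 in Ago2 ADH, 54.0 to 57.3 in Ago2 null, 89.1 to 98.0 in Dicer WT and 75.5 to 78.0 in Dicer KO libraries. Their part in the results below was not tested. Nearly all of this signal came from Nr5a2 and Cyp19a1, while Ptx3 was at 0 in 13 libraries and Foxl2 in 8, and 6 blood markers summed to at most 0.81 CPM. Ago2 counts fell from 1258 to 1509 per fl/fl library to 535 to 753 in Ago2 ADH and 278 to 401 in Ago2 null libraries (edgeR adjusted p = 1.27e-07 and 2.21e-09). Dicer1 counts went against the label, being higher in KO (51298 to 59759) than in WT libraries (28986 to 32662, edgeR adjusted p = 6.11e-12), and counts over a whole transcript do not show whether the deleted exons are present. Reads with several alignments, which are tallied apart from the counts, numbered 55.7 to 59.7 per 100 counts in Ago2 fl/fl, 158 to 166 in Ago2 ADH, 157 to 166 in Ago2 null, 38.8 to 53.6 in Dicer WT and 93.9 to 119 in Dicer KO libraries.

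In control oocytes the levels of the members spanned several orders of magnitude. Normalized for transcript length, Rpl41, the smallest ribosomal protein, was the highest, with 2079.9 ± 81.2 CPM per kilobase (SD, n = 3) in Ago2 fl/fl and 953 ± 63.6 in Dicer WT oocytes. In Ago2 fl/fl Rps29 followed, with 1217 ± 89.5 CPM per kilobase, while in Dicer WT Rps24 (491 ± 16.4), Rps29 (470.4 ± 43.7) and Rpl39 (456 ± 47.5) differed by less than the larger of their SDs. Rpl39, at the exit tunnel of the large subunit, had 969 ± 32.5 CPM per kilobase in Ago2 fl/fl. Next in Ago2 fl/fl came Rps27 with 882 ± 40.7 CPM per kilobase, and then Rplp1 (821 ± 26.3), Rps27rt (812 ± 37.2) and Rps24 (805 ± 27.3), of which the last 3 differed by less than the SD of any of them. At the other end Rps23rg1 (0.36 ± 0.13 CPM per kilobase in Ago2 fl/fl), Rpl10l (1.22 ± 0.093), Rpl7l1 (4.82 ± 0.49) and Rpl9 (9.83 ± 0.40) were the lowest of the tested members with a known length. Rps23 (26.6 ± 1.30) and Rpl3 (19.4 ± 0.25), both core components of every ribosome, also stood among the lowest 10. These per-length levels depend on the transcript model, since the lengths paired with Rps15a (5179 bases) and Rps20 (3706 bases) are far above the median of 799 bases for the members. Of the 50-base words of the transcript, 93.3% for Rpl9, 85.6% for Rpl3 and 51.7% for Rps23 also occur in annotated transcripts of other genes. For Rps27, among the highest, the share was 98.6%. What part shared sequence has in these levels was not tested. The members took 2.10% ± 0.0071 of counts in Ago2 fl/fl and 1.16% ± 0.048 in Dicer WT libraries. Dicer and Ago2 libraries form separate experiments, so a difference between these controls and a difference between the experiments cannot be told apart.

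The start of the mRNA is where the TOP motif lies, and 30-base windows around the annotated start (10 bases before it and 20 from it) are shown for members that rose, that fell and that are copies of each other. They are RefSeq sequences of build GRCm38.p6, and capitals mark the unbroken run of C and T that covers the start.
Rps6: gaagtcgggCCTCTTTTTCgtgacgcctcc
Rpl15: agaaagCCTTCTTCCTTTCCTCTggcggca
Rps18: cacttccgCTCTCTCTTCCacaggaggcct
Rps15a: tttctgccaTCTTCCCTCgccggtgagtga
Rps23: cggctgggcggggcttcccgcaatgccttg
Rpl9: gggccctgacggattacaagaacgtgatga
Rpl38: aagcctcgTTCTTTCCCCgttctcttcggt
Rpl35: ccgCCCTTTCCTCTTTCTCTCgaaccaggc
Rps27: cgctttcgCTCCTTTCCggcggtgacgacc
Rps27rt: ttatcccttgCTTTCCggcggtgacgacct
The windows lie at chr4:86857348-86857377 (minus strand) for Rps6, chr14:18270967-18270996 (minus) for Rpl15, chr17:33955646-33955675 (minus) for Rps18, chr7:118116128-118116157 (minus) for Rps15a, chr13:90923112-90923141 (plus) for Rps23 and chr5:65391412-65391441 (minus) for Rpl9. For the members that fell in a mutant they are chr11:114668570-114668599 (plus) for Rpl38, chr2:39005112-39005141 (minus) for Rpl35, chr3:90213629-90213658 (minus) for Rps27 and chr9:114982720-114982749 (minus) for Rps27rt. Rps27rt is a retrogene of Rps27 on another chromosome, and the window of Rps27rt holds the same CTTTCCggcggtgacgacc stretch as that of Rps27. Promoter windows of 250 bases before and 50 after the start were given for 67 of the 87 members, with 79 promoters, and for 20 members none was given. A C at the annotated start followed by at least 4 of C or T, on the sense strand, was present in 15 of these 79 (19.0%) and in 2.51% of all 32851 promoters. A run of at least 5 of C or T over the start was found in 29.1% of member promoters and 10.1% of all. Of the other motifs searched, CCGGAAG on either strand, the core that ETS factors recognize, was present in 32.9% of member promoters against 8.86% of all, GGGCGG on either strand in 57.0% against 35.7%, AAGATGG on either strand, the YY1 core, in 15.2% against 6.34%, and TATAAA on the sense strand in 8.86% against 8.32%.

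In Ago2 ADH oocytes ribosomal protein mRNAs were more often higher than lower, mostly by less than 1.5-fold. Of 85 members tested with edgeR's quasi-likelihood test at an FDR of 1% (Benjamini-Hochberg adjustment over all transcripts), 39 rose, 1 fell and 45 did not pass. Of all 13979 genes tested, 21.0% rose and 19.9% fell. The median log2 fold change of the members was 0.15, beside 0.01 for all genes tested. Of the 40 members that changed, 35 did so by less than 1.5-fold. The groups did not overlap, with all mutant libraries higher, for 48 members, while this held for 30.0% of all genes tested. With offsets for GC content and length 29 members rose and 7 fell, and the median was 0.08. The plot of fold changes by subunit shows a dense group of members just above 0 and 5 that stand apart from it, Rps23, Rps23rg1, Rpl9, Rpl23a and Rps6.

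**Figure D1:**
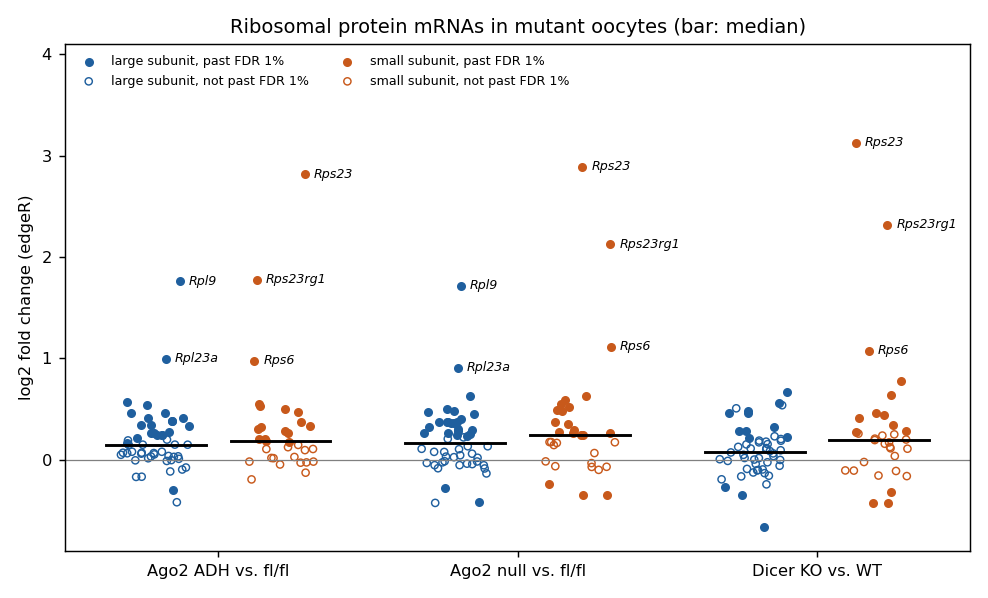
Log2 fold change (y axis, edgeR) of each tested ribosomal protein gene in Ago2 ADH, Ago2 null and Dicer KO oocytes against their controls, by subunit. Filled points passed an FDR of 1%, bars are medians, and the median lay between 0.08 and 0.24 in every group while Rps23 lay between 2.81 and 3.13.

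Rps23 encodes a protein at the decoding centre of the small subunit (NM_024175, GRCm38.p6 chromosome 13, 90923122 to 90924732). Its level was 25.9, 25.2 and 23.5 normalized CPM in the Ago2 fl/fl libraries and 172, 181 and 170.3 CPM in the Ago2 ADH libraries. In Ago2 null libraries it was 184 and 188 CPM. All mutant libraries lay far above all controls, and the increase was 7.04-fold in Ago2 ADH (log2 2.81 ± 0.060 SE, edgeR adjusted p = 1.13e-17) and 7.40-fold in Ago2 null oocytes (2.89 ± 0.067, edgeR adjusted p = 2.92e-15). Dicer WT libraries had 13.0, 10.9 and 9.79 CPM and Dicer KO libraries 104, 93.7 and 96.2 CPM. Here too the groups were far apart, with an 8.73-fold increase (log2 3.13 ± 0.099, edgeR adjusted p = 8.43e-15). No run of C and T covers the annotated start of Rps23 in the window shown above. Rps23rg1, named as a retrogene of Rps23 (chromosome 8, 3567998 to 3584776), was present at 0.44 to 0.82 CPM in Ago2 fl/fl, 1.78 to 2.27 in Ago2 ADH, 2.34 and 2.78 in Ago2 null, 0.20 to 0.58 in Dicer WT and 2.05 to 2.32 in Dicer KO libraries. It rose by 1.77 ± 0.31, 2.12 ± 0.33 and 2.32 ± 0.39 on the log2 scale in the 3 mutants (edgeR adjusted p = 0.000108, 5.26e-05 and 8.80e-05). The Dicer WT libraries held only 8, 22 and 25 counts of Rps23rg1. Its Dicer KO call held when each library was left out in turn, but not in every alternative fit. Of the 50-base words of the Rps23 transcript 51.7% also occur in annotated transcripts of other genes, and reads that the pair shares cannot be told apart.

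Rps6, the small subunit protein that S6 kinases phosphorylate (NM_009096, chromosome 4, 86854099 to 86857367), was at 146, 140.4 and 147 CPM in Ago2 fl/fl libraries. In Ago2 ADH libraries it was at 287, 286 and 275 CPM, and in Ago2 null libraries at 319 and 312 CPM. Control and mutant libraries did not overlap, and the increase was 1.97-fold in Ago2 ADH (edgeR adjusted p = 2.65e-12) and 2.17-fold in Ago2 null oocytes (edgeR adjusted p = 5.23e-11). In Dicer WT libraries Rps6 stood at 93.5, 81.2 and 79.8 CPM, and in Dicer KO libraries at 188, 170.04 and 178 CPM, a 2.11-fold increase (edgeR adjusted p = 4.67e-10). Rpl23a, near the exit tunnel of the large subunit (NM_207523, chromosome 11, 78180935 to 78183584), was at 160.3, 169 and 162 CPM in Ago2 fl/fl, 307, 344 and 322 in Ago2 ADH and 302 and 316 CPM in Ago2 null libraries. It was at 70.6, 74.7 and 68.6 CPM in Dicer WT and 116, 112 and 112 CPM in Dicer KO libraries. All mutant libraries again lay above their controls, with increases of 1.99-fold, 1.87-fold and 1.59-fold in Ago2 ADH, Ago2 null and Dicer KO oocytes (edgeR adjusted p = 7.50e-12, 1.01e-09 and 1.01e-07).

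Rpl9, a large subunit protein (NM_011292, chromosome 5, 65388364 to 65391431), was at 7.59, 7.12 and 7.05 CPM in Ago2 fl/fl, 25.8, 19.6 and 28.1 in Ago2 ADH and 24.0 and 24.2 CPM in Ago2 null libraries. It rose 3.39-fold in Ago2 ADH (edgeR adjusted p = 5.73e-10) and 3.29-fold in Ago2 null oocytes (edgeR adjusted p = 8.46e-10), with no overlap between groups. In Dicer WT libraries Rpl9 was at 8.68, 6.52 and 4.74 CPM, and in Dicer KO libraries at 7.76, 7.57 and 13.5 CPM. These groups overlapped, and the log2 difference of 0.54 ± 0.23 did not pass (edgeR adjusted p = 0.063). The difference between the Ago2 ADH and the Dicer KO effect on Rpl9 was 1.17 ± 0.28 on the log2 scale (edgeR adjusted p = 0.0103, not past 1%). It passed with RLE scaling, without a filter, with all 5 groups in one fit, with GC and length offsets, and without the second Ago2 ADH, the third Dicer WT or the third Dicer KO library. Of the 50-base words of the Rpl9 transcript 93.3% occur in other annotated transcripts, the share being 84.6% for Rps6 and 82.6% for Rpl23a.

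**Figure D2:**
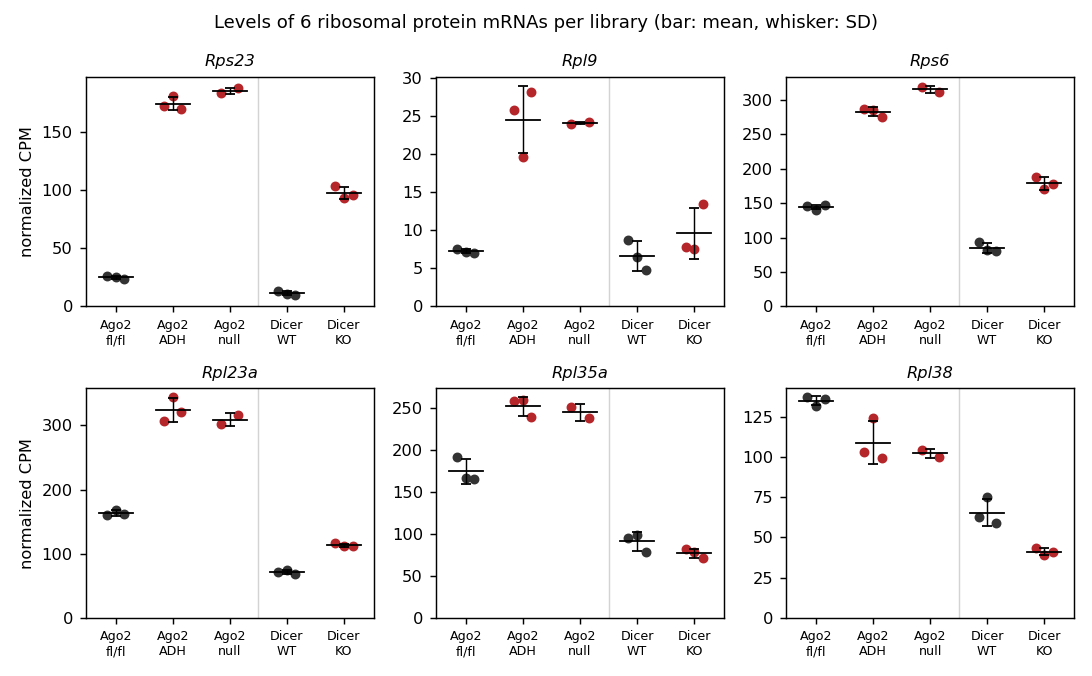
Normalized CPM (linear y axes from 0) of 6 ribosomal protein genes in each library, with the mean and SD of each group; the grey line separates the Ago2 from the Dicer libraries. Rps23, Rps6 and Rpl23a were higher and Rpl38 lower in all mutant than in control libraries, whereas Rpl9 and Rpl35a were higher in both Ago2 mutants and overlapped or lay close to the controls in Dicer KO libraries.

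In Ago2 null oocytes 42 of 85 members rose and 5 fell. Of all 14302 genes tested, 18.6% rose and 18.7% fell. The median log2 fold change of the members was 0.22, beside 0.01 for all genes tested, and it was 0.17 without the 5 members with the largest increases. All null libraries were above all controls for 54 members, and for 34.7% of all genes tested. With offsets for GC content and length 29 members rose and 8 fell, with a median of 0.08. Besides the members above, increases were 1.55-fold for Rps3 and 1.51-fold for Rps2, which sit at the mRNA entry channel (edgeR adjusted p = 4.77e-06 and 1.35e-07), and 1.55-fold for Rpl12, at the base of the stalk (1.48e-06, edgeR). The same 3 genes rose 1.46-fold, 1.41-fold and 1.49-fold in Ago2 ADH oocytes (edgeR adjusted p = 1.30e-05, 4.92e-07 and 2.19e-07). In the null comparison 31 of the 42 increases and 3 of the 5 decreases remained when each library was left out in turn. In Ago2 ADH oocytes 31 of the 39 increases and the decrease of Rpl38 remained.

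Both Ago2 mutants share the fl/fl controls, so their likeness rests in part on the same 3 libraries. Compared directly, Ago2 ADH and null oocytes differed in no member at an FDR of 1% with edgeR or with DESeq2, and 0.118% of all genes tested did so. At an unadjusted p under 0.05, 18 of 85 members differed in edgeR's test, as did 10.1% of all genes tested. The members' differences ranged from -0.37 to 0.31 on the log2 scale, with a median of -0.04. The highest value was that of Rps27 (0.31 ± 0.074, edgeR adjusted p = 0.11), which was at 283, 333 and 281 CPM in Ago2 ADH and 247 and 236 CPM in Ago2 null libraries. The null group held 2 libraries.

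In Dicer KO oocytes 21 of 85 members rose and 6 fell. Of all 13799 genes tested, 16.9% rose and 17.6% fell. The median log2 fold change of the members was 0.11, beside 0.0004 for all genes tested. Scaling by library size alone moved the median of the members to 0.05 and that of all genes to -0.06. With offsets for GC content and length the median of the members was 0.077. All KO libraries were above all WT libraries for 37 members, and for 27.4% of all genes tested. Beyond Rps23, Rps23rg1, Rps6 and Rpl23a, the largest increases were 1.71-fold for Rps15a, 1.55-fold for Rps13 and 1.47-fold for Rpl10a, the protein of the L1 stalk (edgeR adjusted p = 1.00e-07, 9.88e-07 and 4.87e-07). Leaving out each library in turn kept 18 of the 21 increases and all 6 decreases. Of the 21 increases, 12 passed in every alternative fit.

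Rpl38, a large subunit protein known for its part in the translation of homeobox mRNAs (NM_001048057, chromosome 11, 114667818 to 114672333), was the only member that passed an FDR of 1% as lower in all 3 mutants. It was at 137, 132 and 136 CPM in Ago2 fl/fl, 103, 124 and 99.3 in Ago2 ADH and 104 and 100.2 CPM in Ago2 null libraries. The Dicer WT libraries had 62.4, 75.01 and 58.8 CPM and the Dicer KO libraries 43.4, 39.0 and 41.1 CPM. No mutant library reached its controls, and the decreases were 1.23-fold, 1.33-fold and 1.59-fold (edgeR adjusted p = 0.00107, 2.78e-05 and 6.76e-06). Rps27, a zinc-finger protein of the small subunit, was at 311, 288 and 313 CPM in Ago2 fl/fl and was lower in the Ago2 null libraries given above (1.27-fold, edgeR adjusted p = 0.000139). In Dicer WT it was at 119, 127 and 109 CPM and in Dicer KO at 84.9, 89.2 and 90.004 CPM, 1.35-fold lower (edgeR adjusted p = 5.32e-05). Rps27rt had nearly the same counts in every library, for instance 18217 beside 18243 in the first Ago2 fl/fl library, and like log2 differences (-0.34 in Ago2 null and -0.43 in Dicer KO for either gene). Reads with several alignments are kept in a tally of their own, so these near-equal counts are not accounted for, and the pair is not given as separate evidence. Both are in every count of decreases in Ago2 null and Dicer KO oocytes. Rpl35, at the exit tunnel, fell 1.21-fold in Ago2 null and 1.28-fold in Dicer KO oocytes (edgeR adjusted p = 0.00106 and 0.000123), the former not without the second Ago2 fl/fl or the second Ago2 null library. All Ago2 ADH libraries also lay below the fl/fl libraries for Rpl35, but the log2 difference of -0.12 ± 0.046 did not pass (edgeR adjusted p = 0.043). Rps29 fell 1.18-fold in Ago2 null oocytes (edgeR adjusted p = 0.00582), a call lost without any of the 3 fl/fl libraries or without the first null library. Rpl5 fell 1.21-fold in Dicer KO oocytes (edgeR adjusted p = 0.000934). Rpl38, Rpl35 and Rps27 each have a run of C and T over the start in the windows above, as do Rps6, Rpl15, Rps18 and Rps15a, which rose. The start of Rpl5, whose window is not shown, has no such run, and neither have those of Rps23 and Rpl9, which rose.

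Across the 3 mutants, 16 members rose in each, 21 rose in both Ago2 mutants without passing in Dicer KO oocytes, 3 (Rpl7a, Rpl7l1 and Rps9) rose in Dicer KO oocytes only by this threshold, and 31 passed in none. Of the 13310 genes tested in all 3 comparisons, 11.2% rose in each mutant, 5.74% rose in both Ago2 mutants without passing in Dicer KO, 3.97% rose in Dicer KO and in neither Ago2 mutant, and 45.3% passed in none. Only Rpl38 fell in each mutant, as did 12.3% of these genes, and no member rose in one mutant and fell in another, as 0.413% did. The Ago2 comparisons share their controls, so these patterns rest in part on the same libraries. Among the 16 were Rpl10a, Rpl12, Rpl15, Rpl23a, Rplp0 and Rplp1 of the large and Rps2, Rps3, Rps6, Rps13, Rps15a, Rps18 and Rps23 of the small subunit. Rpl12, Rpl15, Rpl23a, Rplp0, Rps3, Rps6, Rps18, Rps20 and Rps23 passed in every alternative fit of both Ago2 ADH and Dicer KO. Each of the rest of the 16 lost a call in some of these fits. The Ago2 ADH calls of Rpl10a and Rps13 did not hold when each library was left out in turn. The effects of Ago2 ADH and Dicer KO, which share no library, had a Pearson r of 0.83 and a Spearman rho of 0.62 across the 85 members, with the same sign for 67. Without the 5 largest increases r was 0.47 and rho 0.55 over 80 members, with the same sign for 62. These are correlations across genes, which share libraries and are not independent replicates, and they are given as a description.

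The size of the effect differed between Ago2 ADH and Dicer KO oocytes for 5 members at an FDR of 1%, beside 3.74% of all genes tested. Rpl35a, a large subunit protein altered in some patients with Diamond-Blackfan anaemia, was at 192, 166 and 165 CPM in Ago2 fl/fl and 258, 259 and 239 in Ago2 ADH libraries, and at 95.4, 99.1 and 78.6 CPM in Dicer WT and 81.5, 78.1 and 71.1 CPM in Dicer KO libraries. It was thus higher in all Ago2 ADH libraries, and the Dicer groups overlapped (log2 difference of -0.24 ± 0.084, edgeR adjusted p = 0.024). The Ago2 ADH effect exceeded the Dicer KO effect by 0.73 ± 0.11 on the log2 scale (edgeR adjusted p = 0.000143). For Rpl37a, a zinc-binding protein of the large subunit, the difference was 0.51 ± 0.095 (edgeR adjusted p = 0.00120). The effect was larger in Dicer KO oocytes for Rps15a (-0.56 ± 0.10), Rps13 (-0.48 ± 0.090) and Rpl10a (-0.40 ± 0.076), with edgeR adjusted p = 0.00120, 0.00127 and 0.00156, and the last call was lost with GC and length offsets. Rps15a showed this in each library, with 488, 474 and 465 CPM in Ago2 fl/fl against 551, 628 and 532 in Ago2 ADH, but 162, 149 and 129 in Dicer WT against 267, 248 and 237 CPM in Dicer KO libraries. Between the Ago2 null and Dicer KO effects 4 members differed, beside 3.09% of all genes tested, namely Rpl35a (0.69 ± 0.12), Rpl24 (0.41 ± 0.091), Rps15a (-0.46 ± 0.10) and Rps13 (-0.42 ± 0.096). Leaving out 1 library took this count to between 1 and 5. It was 1 without any of the 3 fl/fl libraries, either null library or the second Dicer WT library, and 2 without the first or second Dicer KO library.

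**Figure D3:**
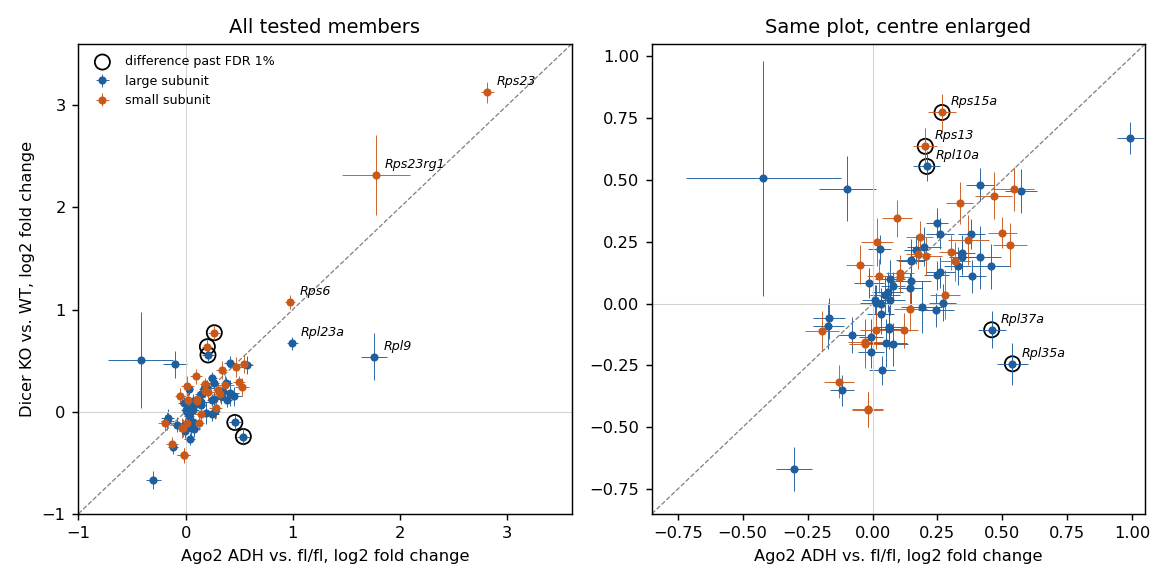
Log2 fold change in Dicer KO (y) against that in Ago2 ADH oocytes (x) for the tested members of both subunits, with SE bars; the right panel enlarges the centre and the dashed line marks equal effects. Circled members differ between the effects at an FDR of 1%: Rps15a, Rps13 and Rpl10a lie above the line and Rpl35a and Rpl37a below it.

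Large and small subunit genes, as assigned by symbol, were then compared. Among all genes tested, 21.0%, 18.6% and 16.9% rose in Ago2 ADH, Ago2 null and Dicer KO oocytes. In the same order, 19.9%, 18.7% and 17.6% of all genes tested fell. In Ago2 ADH oocytes 21 of 52 large subunit genes rose and 1 fell, with a median log2 fold change of 0.15, and 17 of 32 small subunit genes rose and none fell, with a median of 0.18. In Ago2 null oocytes 24 rose and 2 fell of the large subunit (median 0.17), and 17 rose and 3 fell of the small subunit (median 0.24). In Dicer KO oocytes 10 rose and 3 fell of the large subunit (median 0.08), and 11 rose and 3 fell of the small subunit (median 0.20). The large subunit increases there, 19.2% of the genes tested, were near the share of 16.9% over all genes. In Ago2 null and Dicer KO oocytes alike, 2 of the 3 small subunit decreases were Rps27 and Rps27rt with their near-equal counts. The small subunit increases in each mutant include that of Rps23rg1, which was placed there by its symbol. The small subunit had the higher median in each mutant, by 0.03, 0.08 and 0.12 on the log2 scale, and in Ago2 null oocytes this gap came to between 0.01 and 0.11 when 1 library was left out. Per library, the summed CPM of large over small subunit genes was 1.91 to 1.95 in Ago2 fl/fl, 1.81 to 1.90 in Ago2 ADH, 1.82 to 1.85 in Ago2 null, 2.42 to 2.59 in Dicer WT and 2.17 to 2.24 in Dicer KO libraries. The ratio was therefore lower in every mutant library than in its controls, though in Ago2 ADH the nearest pair lay at 1.904 and 1.906. Without Rps23 and Rps23rg1 the ratio was 1.92 to 1.96 in Ago2 fl/fl, 1.87 to 1.96 in Ago2 ADH and 1.88 to 1.91 in Ago2 null libraries, so that Ago2 ADH and fl/fl overlapped, while Dicer WT (2.44 to 2.60) and Dicer KO (2.25 to 2.32) did not. No test was made of these sums over members.

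**Figure D4:**
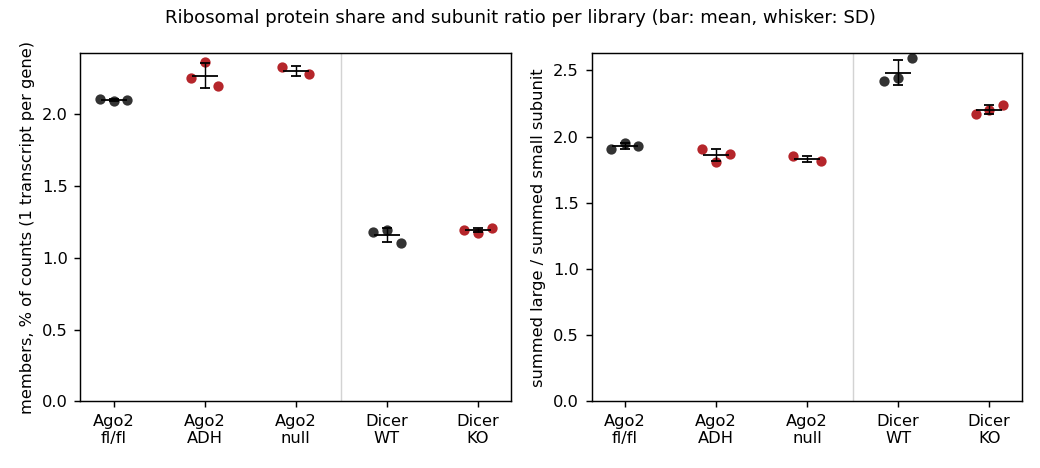
Left, counts on ribosomal protein genes as a percentage of all counts (1 transcript per gene); right, summed CPM of large over summed CPM of small subunit genes, per library, with the mean and SD of each group. The share was 2.09% to 2.10% in Ago2 fl/fl and at least 2.19% in both Ago2 mutants, and the ratio was lower in every mutant library than in its controls.

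As a whole the members took 2.27% ± 0.085 of counts in Ago2 ADH (SD, n = 3) and 2.30% ± 0.034 in Ago2 null oocytes (n = 2), and every one of these libraries lay above the fl/fl range of 2.09% to 2.10%. In Dicer KO oocytes the share was 1.19% ± 0.015, and of the 3 libraries (1.17% to 1.20%) the lowest lay within the WT range of 1.10% to 1.19%. Without the 5 members with the largest increases the share was 2.05% ± 0.0074 in Ago2 fl/fl, 2.16% ± 0.082 in Ago2 ADH, 2.19% ± 0.034 in Ago2 null, 1.13% ± 0.046 in Dicer WT and 1.14% ± 0.013 in Dicer KO oocytes.

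By role, the stalk that recruits elongation factors rose in both Ago2 mutants with all 3 of its genes. Rplp0 rose 1.33-fold, 1.39-fold and 1.40-fold in Ago2 ADH, Ago2 null and Dicer KO oocytes (edgeR adjusted p = 4.35e-06, 6.84e-06 and 1.01e-05). Rplp1 rose 1.20-fold, 1.28-fold and 1.22-fold (edgeR adjusted p = 0.000537, 4.61e-05 and 0.00130), and none of these 3 calls held with offsets for GC content and length. Rplp2 rose 1.37-fold and 1.29-fold in the Ago2 mutants (edgeR adjusted p = 4.33e-05 and 0.000214), the null call being lost with the replicate block and GC and length offsets together, and its log2 difference of 0.15 ± 0.091 in Dicer KO oocytes did not pass (edgeR adjusted p = 0.19). Of the 5S RNP, the complex of 5S ribosomal RNA that also binds MDM2, Rpl11 rose 1.19-fold and 1.21-fold in the Ago2 mutants (edgeR adjusted p = 0.000223 and 0.000652). Rpl5 had log2 differences of 0.04 ± 0.050 and 0.02 ± 0.054 there (edgeR adjusted p = 0.56 and 0.74) and fell in Dicer KO oocytes only by this threshold. Rpl3, close to the peptidyl transferase centre, rose 1.33-fold in Ago2 ADH and 1.41-fold in Ago2 null oocytes (edgeR adjusted p = 0.000238 and 7.18e-05), whereas Rpl4 (0.01, 0.02 and 0.02) and Rpl39 (0.00, -0.04 and -0.13) had log2 differences that passed in no mutant. Rpl10, which joins the large subunit late, rose 1.12-fold in Ago2 ADH and 1.16-fold in Dicer KO oocytes (edgeR adjusted p = 0.00497 and 0.00460), calls that 4 of the 6 fits with 1 library less lost in each case.

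Several ribosomal protein genes have a paralogue, and the members of a pair did not always give the same call. Rpl10l, the testis copy of Rpl10, was at 1.15 to 1.33 CPM in Ago2 fl/fl, 0.72 to 1.06 in Ago2 ADH, 0.87 and 1.02 in Ago2 null, 0.35 to 0.66 in Dicer WT and 0.45 to 1.06 in Dicer KO libraries, and its differences did not pass (edgeR adjusted p = 0.25, 0.30 and 0.41). Rpl39l was abundant, at 105 to 112 CPM in Ago2 fl/fl and 33.9 to 39.8 CPM in Dicer WT libraries, and passed in no mutant (edgeR adjusted p = 0.025, 0.83 and 0.45). Rpl22 rose 1.31-fold and 1.28-fold in the Ago2 mutants (edgeR adjusted p = 4.69e-06 and 0.000107), and its paralogue Rpl22l1 rose 1.25-fold in Ago2 null oocytes (edgeR adjusted p = 0.00565), a call lost without the second or the third fl/fl or either null library. Rps27l, unlike Rps27, rose 1.29-fold in both Ago2 mutants (edgeR adjusted p = 0.000564 and 0.000354). Rpl7l1, at 9.61 to 10.2 CPM in Dicer WT and 12.1 to 15.2 CPM in Dicer KO libraries, rose 1.38-fold there (edgeR adjusted p = 0.00770), a call that the removal of any 1 library other than the second Dicer KO library ended. Rpl36a passed in Ago2 null oocytes (log2 0.31 ± 0.075, edgeR adjusted p = 0.00298), but not without the second or the third fl/fl or the second null library. Its paralogue Rpl36al passed in no mutant (-0.08, -0.09 and -0.13), and the difference between the paralogues was not tested. Rps14, which lies in the platform of the small subunit, rose by 0.28 ± 0.058 and 0.26 ± 0.068 on the log2 scale in the Ago2 mutants (edgeR adjusted p = 0.000525 and 0.00472), where the null call was lost without the first or the third fl/fl or the first null library and neither held with GC and length offsets. Rps19, another gene linked to Diamond-Blackfan anaemia (0.15, -0.06 and -0.02), and Rps27a, made as a fusion with ubiquitin (-0.03, 0.17 and -0.16), passed in none. Rps19bp1 rose 1.34-fold in Ago2 ADH and 1.33-fold in Ago2 null oocytes (edgeR adjusted p = 0.00260 and 0.00378). Both calls were lost without the second or the third fl/fl library, and also without the first Ago2 ADH or either null library.

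Sequence shared with other transcripts, pseudogenes among them, bears on how these mRNAs are counted. Over the members, the share of 50-base words found in annotated transcripts of genes elsewhere ranged from 0% to 98.6% with a median of 48.5%. Its Spearman correlation with the log2 fold change, over 84 members measured in the same libraries, was 0.04 in Ago2 ADH, 0.06 in Ago2 null and -0.01 in Dicer KO oocytes. For transcript length the correlation over the same members was higher, at 0.22, 0.27 and 0.30. The median length was 799 bases for members and 2908 bases for all genes tested in Ago2 ADH. What part length has in the fold changes was not tested. Members with at most 50% shared words rose in 21 of 44 cases in Ago2 ADH, 21 of 44 in Ago2 null and 11 of 44 in Dicer KO oocytes. Those above 50% rose in 18, 21 and 10 of 40 cases. Reads with several alignments were more numerous in every mutant than in any control library, and their part in the counts of these members was not tested. A start run of at least 5 of C or T was present in 22 tested members with a promoter window, of which 9, 9 and 7 rose and 1, 4 and 4 fell in Ago2 ADH, Ago2 null and Dicer KO oocytes. Of 43 members without such a run 20, 22 and 9 rose and 0, 0 and 1 fell. Among all genes tested, 21.0%, 18.6% and 16.9% rose and 19.9%, 18.7% and 17.6% fell in these comparisons. The decreases with a run in Ago2 null and Dicer KO oocytes include both Rps27 and Rps27rt, with their near-equal counts. Whether a start run goes with the direction of change was not tested.

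Genes that belong to the same machinery but carry other symbols were examined as lists, here and below. Beside them, 21.0%, 18.6% and 16.9% of all genes tested rose and 19.9%, 18.7% and 17.6% fell in Ago2 ADH, Ago2 null and Dicer KO oocytes. Rpsa, a small subunit protein whose symbol the rule does not take, rose by 0.68 ± 0.067, 0.73 ± 0.069 and 0.34 ± 0.078 on the log2 scale (edgeR adjusted p = 8.72e-08, 1.77e-07 and 0.00141). Of 16 other mRNAs known to begin with a TOP motif, 8 rose and 1 fell in Ago2 ADH, 6 rose and 1 fell in Ago2 null, and 8 rose and 1 fell in Dicer KO oocytes, with medians of 0.20, 0.20 and 0.23. Among these Pabpc1, the poly(A)-binding protein, rose by 1.35 ± 0.13, 1.10 ± 0.13 and 0.56 ± 0.12 (edgeR adjusted p = 4.65e-08, 2.18e-06 and 0.000737), and Eef1g, a subunit of the elongation factor that recharges EEF1A, by 0.69 ± 0.098, 0.56 ± 0.12 and 0.69 ± 0.095 (edgeR adjusted p = 1.04e-05, 0.00141 and 7.52e-06).

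Mitochondrial ribosomal proteins, which form the separate ribosome of that organelle, showed medians of 0.01, 0.06 and -0.01 in the 3 mutants. In Ago2 ADH oocytes 15 of 78 rose and 10 fell, in Ago2 null 16 of 78 rose and 8 fell, and in Dicer KO 7 of 77 rose and 6 fell. Mrpl9 rose in each, by 1.82 ± 0.066, 1.97 ± 0.061 and 2.48 ± 0.084 (edgeR adjusted p = 2.94e-14, 1.01e-13 and 2.26e-14). Factors that assemble the large subunit rose in 5, 5 and 4 and fell in 6, 2 and 5 of 26 cases, and those of the small subunit rose in 4, 5 and 5 and fell in 7, 8 and 6 of 40 cases. Among them Zfp622, a late assembly factor of the large subunit, rose by 2.86 ± 0.39 and 2.93 ± 0.43 in the Ago2 ADH and Ago2 null mutants (edgeR adjusted p = 5.71e-06 and 3.17e-05). Utp3, a factor of the small subunit processome, fell in both Ago2 mutants (-0.85 ± 0.091 and -0.90 ± 0.099, edgeR adjusted p = 2.75e-07 and 1.31e-06). Other small subunit factors rose in all 3 mutants at an FDR of 1%, namely Heatr1 (0.70, 0.66 and 0.96), Bysl (0.57, 0.68 and 1.09) and Utp15 (0.49, 0.68 and 1.02). Nol10 rose by 1.62 ± 0.069 in Dicer KO oocytes (edgeR adjusted p = 6.33e-13). Genes of the RNA polymerase I machinery, which makes ribosomal RNA, rose in 5, 6 and 3 and fell in 3, 1 and 1 of 13 cases. The 11 snoRNP and nucleolar genes rose in 1, 1 and 4 and fell in 1 case each, where Nop10, a core protein of pseudouridylation snoRNPs, fell by 0.60 ± 0.079, 0.65 ± 0.086 and 0.95 ± 0.11 on the log2 scale (edgeR adjusted p = 3.80e-06, 1.08e-05 and 8.55e-07).

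Regulators of TOP mRNA translation did not move as 1 group, with 4, 4 and 2 of 13 higher and 2, 2 and 3 lower. Eif4ebp1, an inhibitor of cap-dependent translation that mTOR switches off, rose by 1.39 ± 0.24 and 1.48 ± 0.27 in the Ago2 ADH and Ago2 null mutants (edgeR adjusted p = 8.87e-05 and 0.000228), and Larp1b, a relative of Larp1, rose in all 3 mutants (1.15 ± 0.11, 1.16 ± 0.12 and 0.78 ± 0.17, edgeR adjusted p = 4.18e-08, 7.55e-07 and 0.000769). Mtor fell by 0.73 ± 0.079 in Dicer KO oocytes (edgeR adjusted p = 3.61e-07). Rps6kb1, the S6 kinase that phosphorylates Rps6, fell in Ago2 null (-0.75 ± 0.078) and Dicer KO oocytes (-0.69 ± 0.078, edgeR adjusted p = 7.18e-07 and 6.64e-07). Its value in Ago2 ADH oocytes is not reported here, and Rps6 mRNA was higher in all 3 mutants. Of 4 genes of ribosome dormancy none rose, and Eef2k, the kinase that inhibits elongation factor EEF2, fell in each mutant (-0.25 ± 0.050, -0.27 ± 0.059 and -0.24 ± 0.062, edgeR adjusted p = 0.000363, 0.00112 and 0.00319).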

How the data were processed

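The authors lysed 20 oocytes per tube, amplified cDNA (Ovation RNA-Seq System V2), sheared it and sequenced paired-end reads of 36 or 50 bases; which libraries had which length is not given in the sources used here. They aligned to mm10 with TopHat (TopHat2 2.0.7 in the submitters' processing notes, which also list DESeq 1.10.0) and counted with htseq-count (HTSeq 0.6.1) in intersection-strict mode without strand. The deposited values are raw counts per RefSeq transcript, with separate tallies for reads outside transcripts and with several alignments. Libraries of each Ago2 genotype shared a lane, and no lane held 2 Ago2 genotypes, so effects of lane and of genotype cannot be told apart. The methods state 3 replicates per group, and the series 2 for Ago2 null.

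Of 26495 transcript IDs 26077 were named from RefSeq and 117 from GENCODE, and 301 stayed unnamed. edgeR 4.0.16 (R 4.3.3) was fitted on all transcripts of the groups compared, after filterByExpr (minimum count 10, total 15) and TMM, with the quasi-likelihood test, Benjamini-Hochberg adjustment and an FDR of 1%. The SE is the absolute log2 fold change over the square root of F. Differences between effects are interaction contrasts over 4 groups. Normalized CPM used TMM within the 8 Ago2 and within the 6 Dicer libraries. No replicate pair agreed within sampling noise. The fits were tested on simulated data. P-values measure the spread between pools of oocytes, and detection limits cover counting error only.

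Named genes were those fixed by role or paralogy, the 5 largest increases and decreases in each mutant, and members whose effects differed; others were named after their values were seen. The members and lists were chosen with earlier results of these data known. Alternatives were DESeq2 1.42.0, RLE or library size scaling, TMM without the members, other filters, 1 transcript per gene, all 5 groups in one fit, the replicate block, offsets for GC content and length (lowess span 0.3), an FDR of 5% and leaving out each library. Tables were made with pandas 2.3.3, numpy 2.4.6 and scipy 1.17.1 under Python 3.11.15. Some members are not reported here by name.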

Additional observations from a re-analysis of the deposited data

Results flagged for a closer look

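The effects of the Ago2 and Dicer mutations differed for 6 members by edgeR's interaction test (quasi-likelihood, Benjamini-Hochberg adjustment, FDR of 1%). The same test called 3.74% of all genes tested for Ago2 ADH and 3.09% for Ago2 null, each compared with Dicer KO. The Ago2 ADH effect minus the Dicer KO effect, as a difference of log2 fold changes, was 0.73 for Rpl35a, 0.51 for Rpl37a, -0.56 for Rps15a, -0.48 for Rps13 and -0.40 for Rpl10a. The Ago2 null effect minus the Dicer KO effect was 0.69 for Rpl35a, 0.41 for Rpl24, -0.46 for Rps15a and -0.42 for Rps13. The Ago2 ADH and Ago2 null effects share their controls, so the second set is not separate from the first.

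Reads with several alignments, which are tallied apart from the counts, were more numerous in the mutants than in the controls. Their mean was 161 per 100 counts on transcripts in Ago2 ADH and 161 in Ago2 null libraries, beside 57.2 in Ago2 fl/fl, and 103 in Dicer KO, beside 45.8 in Dicer WT libraries.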

How the results depend on the processing

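None of the members' called values and medians changed sign under the alternatives run, whereas the median of all genes went from 0.01 to -0.03 (Ago2 ADH), 0.01 to -0.02 (Ago2 null) and 0.0004 to -0.06 (Dicer KO) with library size only. The 5 largest increases in Ago2 ADH and Ago2 null oocytes and the decreases of Rpl38 in all 3 mutants passed an FDR of 1% in every alternative fit, 16 for Ago2 ADH and Dicer KO and 15 for Ago2 null. In these fits 27 of 39 increases remained in Ago2 ADH, 23 of 42 in Ago2 null and 12 of 21 in Dicer KO oocytes. The members that fell in Ago2 ADH numbered 5 with library size only, 2 without a filter, 7 with GC and length offsets, 8 with the replicate block and these offsets, and 5 at an FDR of 5%. In Ago2 null 8 fell with GC and length offsets, and 24 rose with the block and offsets, as 13 did in Dicer KO. The median log2 fold change in Ago2 ADH was 0.10 with library size only, 0.10 with all 5 groups in one fit, 0.079 with GC and length offsets and 0.080 with the block and offsets. In Ago2 null it was 0.19 with library size only, 0.24 with at least 10 counts in every library, 0.18 with all 5 groups, 0.085 with offsets, 0.10 with the block and offsets and 0.17 without the 5 largest increases (a choice made after seeing the data), and in Dicer KO 0.053 with library size only. The large minus small subunit median in Ago2 null was -0.11 without a filter, -0.11 with all 5 groups, -0.016 with the replicate block and -0.040 with the block and offsets. Members that differed between Ago2 ADH and null numbered 2 without a filter, 2 with the replicate block, 2 with the block and offsets and 1 with offsets. Those whose Ago2 ADH effect differed from that of Dicer KO numbered 9 with DESeq2, 9 with library size only, 8 without a filter and 14 at an FDR of 5%, and those whose null effect did so 9 with DESeq2, 2 with RLE, 1 with the replicate block, 1 with the block and offsets, 2 with offsets and 9 at an FDR of 5%. The cause of these shifts was not tested.

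Leaving out each library gave 33 to 37 higher and 1 to 4 lower members in Ago2 ADH (4 without the second ADH library), 35 to 41 and 3 to 4 in Ago2 null (3 without the second fl/fl library), and 18 to 20 and 6 to 7 in Dicer KO. The medians were 0.14 to 0.16, 0.21 to 0.23 and 0.10 to 0.13, and the large minus small medians -0.071 to -0.033, -0.11 to -0.014 and -0.13 to -0.08. Between effects 5 to 6 (Ago2 ADH) and 1 to 5 (Ago2 null) members differed, and 0 to 0 between Ago2 ADH and null. Where 1 null library was left, it was assumed to vary like the other group.

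Deviations of libraries with the same replicate number had correlations of 0.02 to 0.05 for Ago2 ADH and fl/fl, -0.07 to -0.03 for null and -0.14 to 0.03 for Dicer. With so few libraries in a group, this cannot show whether the numbers pair the samples. With the replicate block 39 members rose and 1 fell in Ago2 ADH, 30 and 4 in Ago2 null, and 18 and 6 in Dicer KO oocytes. Members under about 1 CPM, such as Rps23rg1 and Rpl10l, are limited by depth.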
